A study of Mus musculus with 10 samples.

Results

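The genes described here are Trp53, which encodes the transcription factor p53, and 9 genes that p53 is known to activate: Mdm2, Ccng1, Bax, Bbc3, Sesn2, Phlda3, Zmat3, Gadd45a and Btg2. They were chosen by name, as the non-control probes whose gene name on the array is one of these 10. The array holds 34607 gene names in all, and each of the 10 genes has 1 probe. None of the 10 genes differed past the threshold between cells given a microRNA mimic and control cells, while Cdkn1a, another gene that p53 activates, was 3.13-fold lower with the mimic. Of 64 other measured regulators and targets of p53, Cdkn1a among them, 9 rose and 3 fell, where 5.86% and 3.88% of all genes did.

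The cells were C2C12, an established mouse myoblast line that withdraws from the cell cycle and fuses into myotubes when serum is lowered. The mimic group received a synthetic copy of miR-142-3p and the scramble group an RNA of scrambled sequence, both at 150 nM with a lipid reagent in medium with serum, and RNA was taken after 72 hours. No other genetic change or agent is named for either group. Each of the 4 scramble titles marks its sample as a re-analysis, which no mimic title does, and what was repeated is not stated in the sources used here. The submitters put the share of transfected cells at about 60%, so for changes as small as those of the 10 genes, a change in some cells and a smaller change in all of them cannot be told apart. The labels list 6 mimic and 4 scramble samples as repeated transfections, but the file headers place the 10 scans at 5 positions of 1 slide, each scanned on 2 days. Both scans of a position were averaged, which leaves n = 3 mimic arrays and n = 2 scramble arrays, and the spread behind every p-value is that among these 5 arrays, some of which may be technical.

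Labelled copies of the RNA were hybridised to a 1-colour array of 60-base probes, and each scan had 25.4% to 34.6% of its non-control spots well above background. Values are log2 signals relative to the scan's 75th percentile, so 0 is a signal equal to that percentile. The scans of 1 array correlated at r = 0.986 to 0.991 over 13542 genes. Pairs of scans from different arrays ran from 0.907 to 0.991, so the most alike of these matched 2 scans of 1 array. The correlation with a mimic array was 0.917 to 0.926 for scramble array 2, against 0.946 to 0.951 for scramble array 1. Of 12 myoblast and muscle markers 9 were measured, among them Myod1 and Des, and 7 of these fell with the mimic, where 3.88% of all genes fell. The 7 include Fgfr4, which was well above background on 4 scramble scans and 0 mimic scans. Of 11 leukocyte markers on the array 6 were measured, and 2 of these rose with the mimic, where 5.86% of all genes rose. They were the lysosomal gene Cd68, by 4.83 on the log2 scale, and the endotoxin co-receptor gene Cd14, by 1.54, the latter call lost without a filter. The other 5 markers, with Ptprc among them, had no scan well above background.

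In unstressed cells p53 protein is kept low because Mdm2, a ubiquitin ligase, marks it for destruction, and Mdm2 is itself induced by p53, which closes a feedback loop. DNA damage and other stresses stabilise the protein, so the amount of Trp53 mRNA is known to say little about p53 activity, which is more often read from its target genes. The targets act in feedback (Mdm2, Ccng1), cell death (Bax, Bbc3, Phlda3), metabolism and RNA stability (Sesn2, Zmat3) and growth arrest (Gadd45a, Btg2). In differentiating myoblasts Cdkn1a, which encodes the cell-cycle inhibitor p21, is also known to be induced by MyoD without p53.

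The agent and the sequences that p53 binds are shown to make the comparison concrete. The mature miR-142-3p of the mouse (RefSeq, GRCm38.p6, chr11:87756903-87756925, plus strand) has its seed, bases 2 to 8, in capitals, and 1 mature mouse miRNA of the table, itself, holds that seed.
mmu-miR-142a-3p: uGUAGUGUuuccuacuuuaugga
The promoter windows of RefSeq (GRCm38.p6, 250 bases before to 50 after a gene's start) were searched for the p53 half-site consensus, a motif that reads the same on both strands. Windows were found for 9 of the 10 genes, and those of Trp53, Mdm2, Ccng1, Bax and Gadd45a hold 1 match each, against 9.55% of all 27025 genes with a window. No match with a CATG core, the form held by 2.24% of genes, lies in the windows of the 9. The first window of Cdkn1a holds a pair of half-sites 0 to 13 bases apart, as do 0.0740% of genes, and the half-sites of that pair are also counted as single matches. A match describes the letters only. The half-sites are in capitals, 5′ to 3′ on the strand of the gene.
Trp53, chr11:69580279-69580298, plus strand: cggaaGGACTTGCCCttact
Mdm2, chr10:117710930-117710949, minus strand: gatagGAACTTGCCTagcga
Ccng1, chr11:40755457-40755476, minus strand: tgcccGGGCAAGCCTtggca
Bax, chr7:45467085-45467104, minus strand: atcccAGGCAAGCTTtgaac
Gadd45a, chr6:67037433-67037452, minus strand: gctgaGGGCTAGCCCcatat
Cdkn1a, chr17:29090906-29090937, plus strand: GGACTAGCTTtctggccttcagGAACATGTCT

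The comparison of mimic with scramble asks whether transcripts of p53 and of genes it drives differ once myoblasts hold more miR-142-3p. None of the 10 genes passed an adjusted p of 0.05 (limma), and all 10 were kept by the filter on dim probes. Of all 13677 genes tested 9.74% passed, 5.86% as higher and 3.88% as lower with the mimic, or 802 and 530 genes. With the percentile taken over probes seen on every scan these were 674 and 664. An unadjusted p below 0.05 was reached by 1 of the 10 genes, Bbc3, against 25.3% of all genes. The fitted log2 differences ran from −0.47 for Trp53 to 0.59 for Bbc3, with 6 above 0 and 4 below. Their median was 0.06, beside 0.09 over all genes, and the median size of a difference, whatever its sign, was 0.34, beside 0.32. The arrays of the groups did not overlap for 5 of the 10 genes, against 42.6% of all genes. These were Ccng1, Bbc3, Zmat3 and Btg2, higher with the mimic (25.9% of all genes), and Phlda3, lower with the mimic (16.7%).

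**Figure D1:**
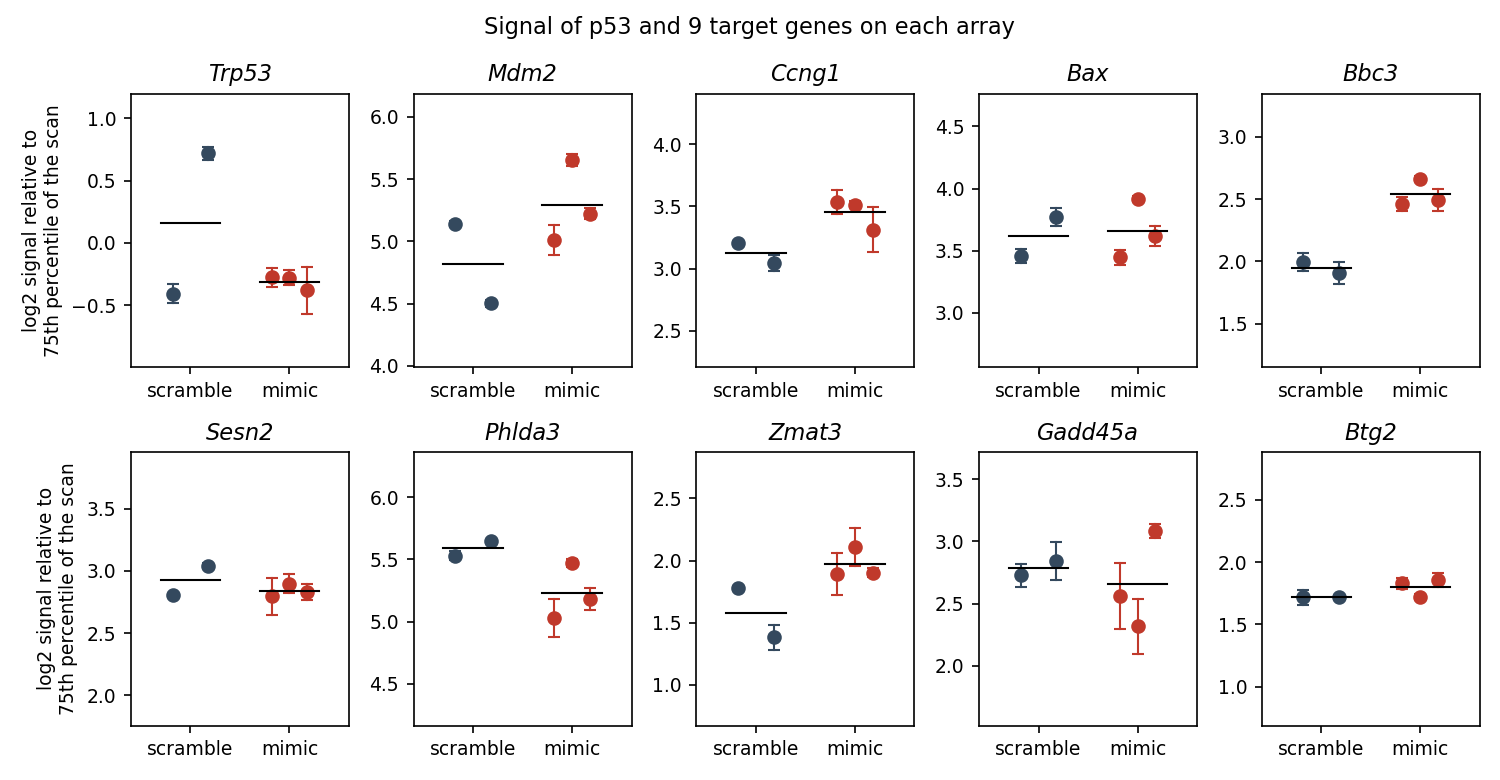
Normalised log2 signal of the 10 genes on each array (vertical axis, relative to the scan's 75th percentile; every panel spans the same number of log2 units). Points are arrays (2 scramble, 3 mimic), bars with caps join both scans of an array and black lines are group means; Trp53 reaches 0.72 on scramble array 2 and lies between −0.41 and −0.28 on the other 4 arrays.

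Trp53 was read by 1 probe, spotted 2 times, that lies at chr11:69404204-69404263 (mm9, plus strand) and was designed on transcript NM_011640. It is printed because the only value for p53 itself rests on it.
Trp53 probe: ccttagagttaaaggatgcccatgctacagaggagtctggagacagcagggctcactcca
Its signal was −0.28, −0.28 and −0.38 on mimic arrays 1, 2 and 3, and −0.41 and 0.72 on scramble arrays 1 and 2. Scramble array 2 stood alone: the other scramble array lay below all 3 mimic arrays. The processed signal was low, at 139, 106 and 143 for the mimic arrays and 116 and 238 for the scramble arrays, and 1 of the 10 scans, a mimic scan, was not well above background. The log2 difference was −0.47 ± 0.32 (SE; limma, adjusted p = 0.394). Without scramble array 1 it was −1.03 and without scramble array 2 it was 0.10, so its sign turned on which control array was kept. The lone scramble array is assumed in these fits to vary like the mimic arrays.

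Mdm2 and Ccng1 act in feedback on p53, the first as its ubiquitin ligase and the second as a cyclin-like protein that recruits a phosphatase to Mdm2. The Mdm2 probe lies on chromosome 10 at 117126010 to 117126069 (mm9). Mdm2 had 5.01, 5.65 and 5.22 on the mimic arrays and 5.14 and 4.50 on the scramble arrays. The groups overlapped, because scramble array 1 lay above mimic array 1. Its difference was 0.47 ± 0.28 (SE; limma, adjusted p = 0.326), with 0.79 without scramble array 1 and 0.16 without scramble array 2. The Ccng1 probe lies on chromosome 11 at 40562427 to 40562486. Ccng1 had 3.54, 3.51 and 3.31 with the mimic and 3.21 and 3.05 with the scramble. All mimic arrays were higher than both scramble arrays, but the nearest pair differed by less than 0.36, the largest gap between 2 scans of 1 array for this gene. Its difference was 0.33 ± 0.20 (SE; limma, adjusted p = 0.342).

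Bbc3 encodes PUMA, a BH3-only protein that blocks the survival proteins of the Bcl-2 family, and came nearest to a call among the 10 genes. Its probe lies on chromosome 7 at 16903403 to 16903462 (mm9). Bbc3 had 2.46, 2.66 and 2.49 on the mimic arrays and 2.00 and 1.90 on the scramble arrays. The groups were clearly apart, and each of the 6 mimic scans lay above each of the 4 scramble scans. The difference was 0.59 ± 0.19 (SE), or 1.50-fold (limma, unadjusted p = 0.0158, adjusted p = 0.103), and its 95% interval ran from a ratio of 1.10 to one of 2.05. It passed the threshold with all 10 scans fitted with terms for scan day (fixed) and array (random) (adjusted p = 0.0470), where 13.3% of all genes passed. It also passed with scans counted as separate samples (adjusted p = 0.00182), where 30.5% passed, but a second scan of an array is no new replicate. Bbc3 passed in none of the other 16 alternatives, where the adjusted p lay between 0.0625 and 0.694.

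Bax encodes the protein that opens the mitochondrial outer membrane in apoptosis, and Phlda3 a small protein that competes with the kinase Akt at the membrane. The Bax probe lies on chromosome 7 at 52717122 to 52717181 (mm9). Bax had 3.45, 3.92 and 3.62 with the mimic and 3.46 and 3.77 with the scramble, which interleave. Its difference was 0.04 ± 0.23 (SE; limma, adjusted p = 0.928), with an interval of ratios from 0.719 to 1.48. Its sign was negative in 7 of 18 alternatives, the scaling to probes seen on every scan and quantile normalization among them. Phlda3 was the only gene of the 10 whose mimic arrays all lay below the scramble arrays. Its probe lies on chromosome 1 at 137665642 to 137665701. Phlda3 had 5.03, 5.47 and 5.18 with the mimic and 5.53 and 5.65 with the scramble. The gap between the nearest arrays was small beside the spread of the mimic arrays, and the difference was −0.36 ± 0.21 (SE; limma, adjusted p = 0.331).

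Sesn2 encodes a sestrin, a stress-induced inhibitor of mTORC1 signalling, and Zmat3 an RNA-binding zinc finger protein. The Sesn2 probe lies on chromosome 4 at 132048858 to 132048917 (mm9). Sesn2 had 2.79, 2.90 and 2.83 with the mimic and 2.80 and 3.04 with the scramble, a difference of −0.08 ± 0.20 (SE; limma, adjusted p = 0.831). The mimic arrays were close together and scramble array 1 lay among them. Without scramble array 2 the sign turned, to 0.04. The Zmat3 probe lies on chromosome 3 at 32233831 to 32233890. Zmat3 had 1.89, 2.11 and 1.90 with the mimic and 1.78 and 1.38 with the scramble. All mimic arrays were higher, with scramble array 1 close to them, and the difference of 0.39 ± 0.21 (SE; limma, adjusted p = 0.301) was 0.59 without scramble array 1 and 0.19 without scramble array 2.

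Gadd45a encodes a stress sensor that binds the kinase Cdk1 and PCNA, and Btg2 an antiproliferative partner of the mRNA deadenylase complex. The Gadd45a probe lies on chromosome 6 at 66985376 to 66985435 (mm9). Gadd45a had 2.56, 2.32 and 3.08 with the mimic and 2.73 and 2.84 with the scramble, so the scramble arrays lay inside the range of the mimic arrays. The scans of 1 array differed by up to 0.53, and the difference between groups was −0.13 ± 0.26 (SE; limma, adjusted p = 0.794). The sign turned without mimic array 2, to 0.04. The Btg2 probe lies on chromosome 1 at 135972094 to 135972153. Btg2 had 1.83, 1.72 and 1.86 with the mimic and 1.72 and 1.72 with the scramble. The groups did not overlap only because mimic array 2 was higher than both scramble arrays by less than the last digit given. The difference was 0.08 ± 0.19 (SE; limma, adjusted p = 0.818), and it was −0.05 with the percentile taken over probes seen on every scan.

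**Figure D2:**
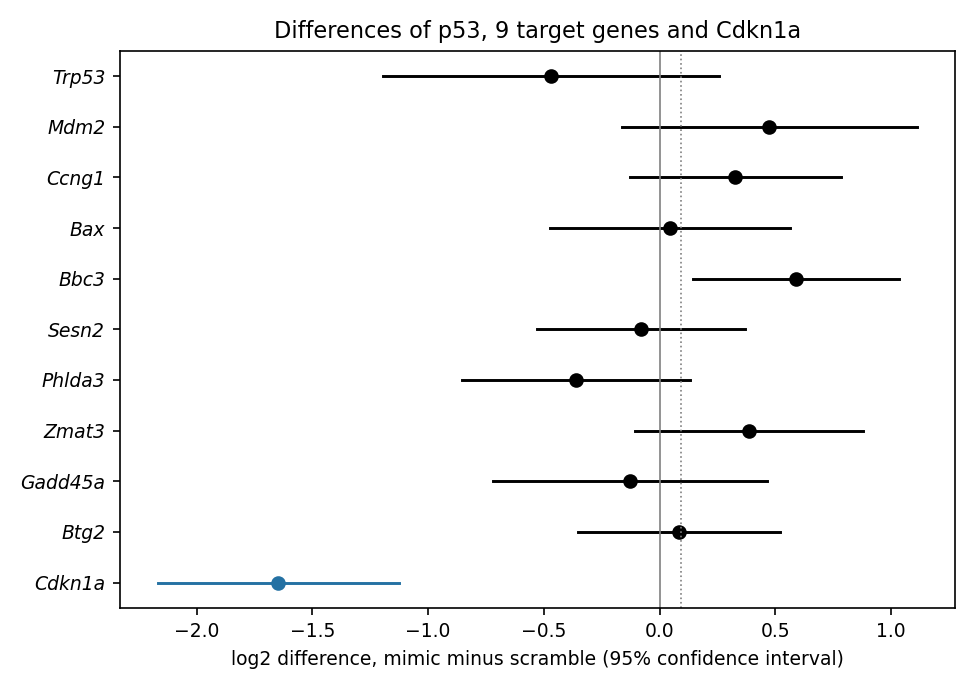
Log2 difference between mimic and scramble (horizontal axis) for the 10 genes and Cdkn1a, as points with 95% confidence intervals from the limma fit. The solid vertical line is 0 and the dotted line the median of all genes, 0.09; only the intervals of Bbc3 (0.14 to 1.03) and Cdkn1a (−2.17 to −1.13) do not span 0.

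The intervals say how large a change these arrays leave possible. The ratio of mimic to scramble could be as low as 0.437 for Trp53 and as high as 2.16 for Mdm2, while those of Sesn2 (0.692 to 1.29) and Btg2 (0.784 to 1.43) were narrower. A p that misses the threshold therefore does not show that these transcripts were equal in both groups.

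Cdkn1a, in contrast to the 10 genes, passed the threshold. On its main probe it had 3.96, 4.11 and 4.05 with the mimic and 5.41 and 5.96 with the scramble, and every mimic array lay far below both scramble arrays. It fell by 1.65 ± 0.23 on the log2 scale (SE; limma, adjusted p = 0.00282), a call lost without a filter on dim probes (adjusted p = 0.0518) and kept in the other 17 alternatives. Its 2 other probes were well above background on 1 and 2 of the 10 scans and were not tested. The muscle regulator Myod1 fell by 3.25 and Myog fell by 7.08. The summed signal of the 9 measured myoblast and muscle markers, on a linear scale where the 75th percentile is 1, was 144 to 170 on the mimic arrays and 372 to 430 on the scramble arrays. The summed signal of the 6 measured leukocyte markers was 52.0 to 56.9 on the mimic arrays and 19.6 to 19.9 on the scramble arrays. Cd68 had by far the largest difference. Fcer1g, Itgam, Csf1r and Cd3e had log2 differences of 0.56, 0.15, 0.17 and 0.11 and did not pass the threshold. Other Itgam probes were well above background on 0 and 2 of the 10 scans and were not tested. The part of the muscle or the leukocyte markers in the fall of Cdkn1a was not tested.

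**Figure D3:**
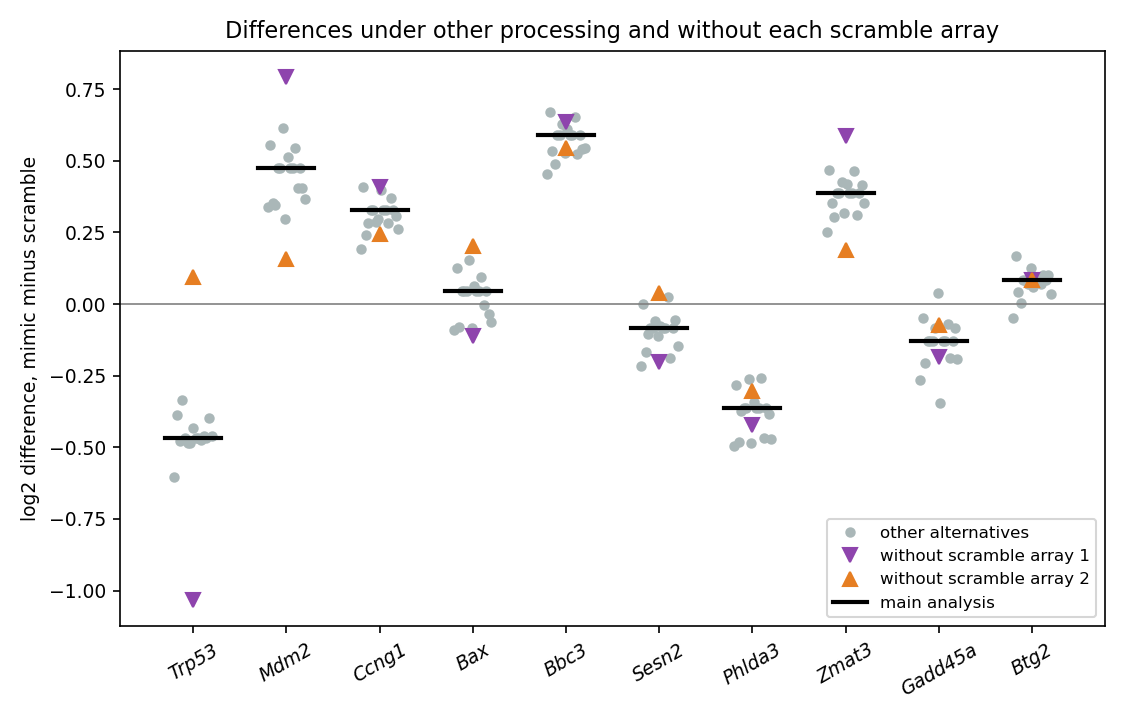
Log2 difference of each of the 10 genes (vertical axis) in the main analysis (black lines), without scramble array 1 or 2 (triangles) and under the other alternatives (grey points). Trp53 spans −1.03 to 0.10 and Mdm2 0.16 to 0.79 between the fits without one or the other scramble array, and Bbc3 stays between 0.45 and 0.67.

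The wider pathway was described through 4 lists of other p53 regulators and targets. Of 89 genes listed, 64 were measured, and 9 of these rose, 3 fell and 52 did not pass the threshold (limma). The median of the 64 was 0.26, beside 0.09 over all genes. The 9 include Trp53i11, which was kept by the filter only through its mimic scans. Over all genes 5.86% rose and 3.88% fell. An unadjusted p below 0.05 was reached by 28 of the 64, against 25.3% of all genes. These lists were chosen with results of these data known, so their counts are a description. Among regulators of p53, 2 of 17 measured genes rose and 1 fell (median 0.08). The rises were those of Pttg1, the securin of mitosis, and Aurka, a mitotic kinase, by 1.09 and 0.95 on the log2 scale. Trp53rkb, a gene for a p53-related kinase, fell by 0.97. It was well above background on 2 of 6 mimic and 4 of 4 scramble scans, so its scramble scans alone met the filter. Pttg1 and Aurka each lost the call in 7 of 18 alternatives, which include leaving out any 1 mimic array or scramble array 2. Trp53rkb lost it in 9 of 17 alternatives, among them the same 4. Mdm4, the partner of Mdm2 that blocks p53, had 0.58 ± 0.23 (SE; adjusted p = 0.168), and Trp53bp1 did not pass either. For Cdkn2a, Atm, Chek2 and Ep300 no scan gave a signal well above background.

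Among arrest and repair targets 1 of 11 measured genes rose and 1 fell (median 0.28), where 5.86% of all genes rose and 3.88% fell. The fall was that of Cdkn1a, and the rise that of Gtse1, a microtubule protein of dividing cells, by 1.04. Gtse1 lost the call in 8 of 17 alternatives, which include leaving out any 1 mimic array or scramble array 2. Ccng2, a relative of Ccng1, had 1.51 ± 0.43 (SE; adjusted p = 0.0663), and Psrc1, a microtubule protein, had 0.97 ± 0.33 (adjusted p = 0.111). Ccng2 was well above background on 3 of 6 mimic and 1 of 4 scramble scans, and Psrc1 on 5 of 6 and 2 of 4. Without scramble array 1 they were 2.27 and 1.56, and without scramble array 2 they were 0.75 and 0.37. For the repair gene Rrm2b no scan gave a signal well above background.

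Among death targets 2 of 14 measured genes rose and none fell (median 0.39), where 5.86% of all genes rose, and 7 had an unadjusted p below 0.05, against 25.3% of all genes. Casp1, the caspase that matures interleukin-1 beta, rose by 2.32 ± 0.30 (SE; limma, adjusted p = 0.00198), from −0.13 and −1.14 on the scramble arrays to 1.56, 1.80 and 1.70, and was called in all 17 alternatives that gave a value. It was well above background on 2 of 4 scramble scans. Trp53i11 passed the background test on none of the scramble scans and on 4 of 6 mimic scans. It was thus kept only through the mimic group, and its place among the rises follows partly from the filter. Trp53i11 was at least 1.13-fold higher, and lost the call in 10 of 17 alternatives, which include leaving out any 1 mimic array or scramble array 2. Pmaip1, which encodes the BH3-only protein NOXA, had −0.96 ± 0.26 (adjusted p = 0.0545) where Bbc3, of the same class, had 0.59. It passed the threshold in 8 of 18 alternatives. The death receptor gene Fas had 0.96 ± 0.32 (adjusted p = 0.110), with 1.46 without scramble array 1 and 0.46 without scramble array 2. Fas was well above background on 5 of 6 mimic and 1 of 4 scramble scans.

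Among metabolic, secreted and other targets 4 of 22 measured genes rose and 1 fell (median 0.41), where 9.74% of all genes passed in either direction, and 12 had an unadjusted p below 0.05, against 25.3% of all genes. The noncoding RNA gene Pvt1, a neighbour of Myc, rose by 1.50 ± 0.23 (SE; limma, adjusted p = 0.00499) and the adaptor gene Sh2b1 fell by 1.38 ± 0.20 (adjusted p = 0.00336). Both calls were lost only without a filter. Ephx1, an epoxide hydrolase of detoxification, rose by 0.95 and Ddit4, an inhibitor of mTORC1 signalling, by 0.998. Both lost the call in 8 of 18 alternatives, which include leaving out any 1 mimic array or scramble array 2. For Ephx1 they include the mean over its probes, as a second probe, well above background on all 10 scans, had 0.43. Pml, the organiser of PML nuclear bodies, had 0.76 ± 0.20 (adjusted p = 0.0518) and Ckb, the brain creatine kinase, −0.90 ± 0.27 (adjusted p = 0.0754). Pml passed in 8 of 18 alternatives and Ckb in 5 of 18. For both, these include the fit without scramble array 1, which leaves scramble array 2 as the only control. They also include the fit that counts scans as separate samples, where 30.5% of all genes passed. Ckb was −0.49 without scramble array 2, and a second Ckb probe, well above background on 9 of the 10 scans, had −0.42. The remaining rise was that of Slc19a2, a thiamine transporter, by 1.01 (adjusted p = 0.0493), a call lost in 9 of 18 alternatives, which include leaving out any 1 mimic array or scramble array 2.

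**Figure D4:**
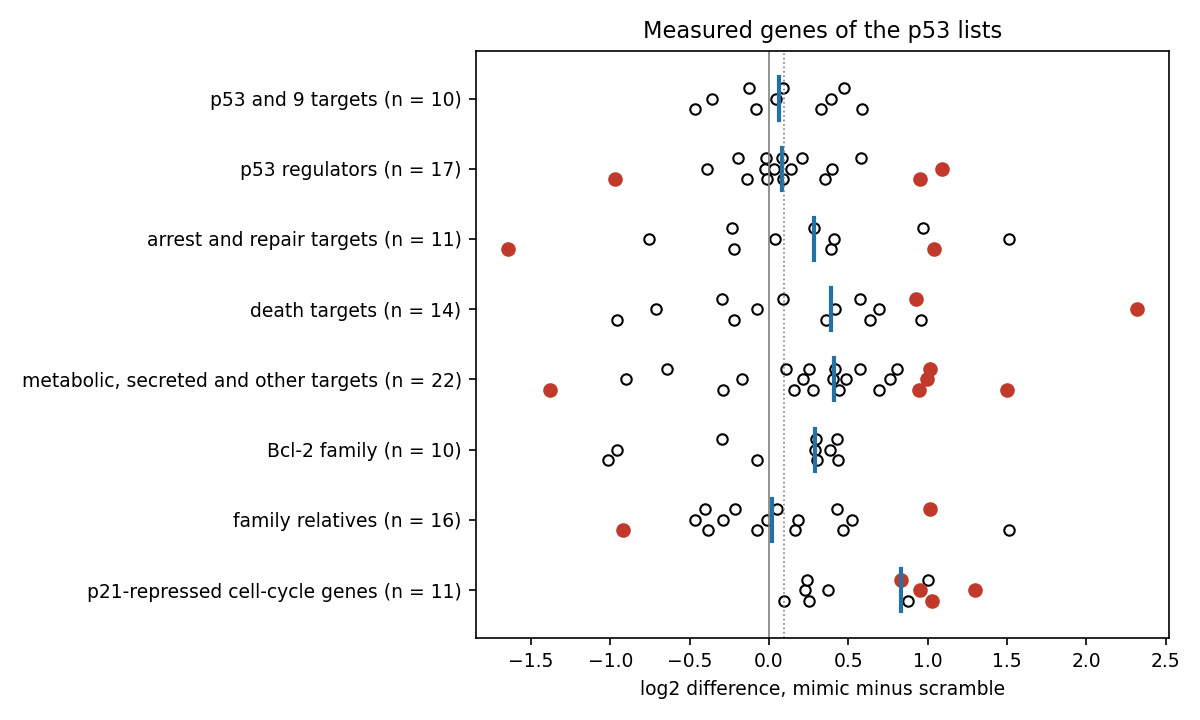
Log2 differences (horizontal axis) of the measured genes in the 10-gene group and in 7 lists, 1 point per gene; filled points passed an adjusted p of 0.05, open points did not, blue bars are medians, the solid vertical line is 0 and the dotted line the median of all genes (0.09). The 10 genes lie between −0.47 and 0.59 with no filled point, and the cell-cycle list has a median of 0.83.

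Of 16 measured relatives of the 10 genes by family, 14 did not pass the threshold, 1 rose and 1 fell (median 0.02), where 9.74% of all genes passed: Btg1, a relative of Btg2, rose by 1.01 and Gadd45g, a relative of Gadd45a, fell by 0.92. Btg1 lost the call in 7 of 18 alternatives and Gadd45g in 5 of 18. For both, these include leaving out any 1 mimic array, and for Btg1 also scramble array 2. Tob1, of the family of Btg2, had −0.46 ± 0.19 (SE; adjusted p = 0.174). Btg1 and Btg2 were not tested against each other, nor were Gadd45g and Gadd45a. None of 10 measured Bcl-2 family genes passed the threshold (limma), and 2 had an unadjusted p below 0.05, against 25.3% of all genes. Bmf had −1.01 ± 0.27 (SE; adjusted p = 0.0552). Without scramble array 1 Bmf was −0.66, and without scramble array 2 it was −1.36. Of 11 measured cell-cycle genes that p53 is known to repress through p21, 4 rose and none fell (median 0.83), where 5.86% of all genes rose. These were Ccnb2 by 1.30, Cdc20 by 1.03, Aurka by 0.95 and Ccnb1 by 0.83. Of 18 alternatives, Ccnb2 lost the call in 4, Cdc20 in 6, Aurka in 7 and Ccnb1 in 9. These losses include leaving out any 1 mimic array and, except for Ccnb2, scramble array 2. Cdk1, the kinase that drives mitosis, had 1.003 ± 0.27 (SE; adjusted p = 0.0544) and Birc5, the survivin gene, 0.87 ± 0.24 (adjusted p = 0.0566). Over the alternatives Cdk1 ran from 0.58, without scramble array 2, to 1.42.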

How the data were processed

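The deposited scanner files hold spot intensity on a linear scale, background-subtracted and detrended by Feature Extraction (version 12.0.0.7 per the file headers, 10.7.3.1 per the submitters' processing notes). The authors' deposited series matrix also holds linear intensity values, with column medians of 175.5 to 353.8; its values followed the scans at r of at least 0.996 on the log2 scale, and how they were scaled between arrays is not stated in the sources used here. Here log2 processed signals were set relative to the scan's 75th percentile, outlier spots were left out, spots of 1 probe were averaged, and a probe was kept when at least 0.5 of its spots were well above background on at least 4 of 10 scans. This kept 17455 probes. The brightest probe stood for its gene, with names updated through RefSeq tables (GRCm38.p6). Array means were compared with limma 3.58.1 (R 4.3.3; degrees of freedom 3 residual, 5.26 prior). P-values of all 13677 genes were adjusted by Benjamini-Hochberg and called below 0.05. The fit was tested on simulated data with independent noise for each gene, which does not cover an array that deviates across many genes. Where a group had no scan well above background, "at least" sets the brighter group against a floor, per array the dimmest signal that passed the background test or, if higher, that of the probe itself. Members and lists were chosen with earlier results of these data known. Named were, of each list, up to 4 called genes in order of p and the next 2 that missed; Slc19a2, Cdkn2a, Atm, Chek2, Ep300, Rrm2b and marker genes were named after their values were seen. Averaging both scans of a position departs from the labels' 6 and 4 samples, which were fitted as an alternative.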

Additional observations from a re-analysis of the deposited data

How the results depend on the processing

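Of the 10 genes, 0 were called in the main analysis and 0 in 15 of 18 alternatives. One gene was called in each of the other 3. Trp53 was called without scramble array 1, at −1.03. That fit had scramble array 2 as its only control, and far more genes were called in it than in the main analysis. Bbc3 was called with the 10 samples kept separate, where 30.5% of all genes passed. It was also called with terms for scan day (fixed) and array (random), where 13.3% passed. Leaving out 1 array gave 0 to 1 called genes, also over probes in place of genes. Over all genes 1332 were called, 761 with scaling to the median, 407 without a filter, 4135 with the 10 samples kept separate and 641 to 3671 without 1 array; the largest of these came without scramble array 1, and 641, 672 and 668 without mimic arrays 1, 2 and 3. The sign of a difference turned for Bax with the percentile over probes seen on all 10 scans (−0.090), quantile normalization (−0.080), the second scan day (−0.0047) and the series matrix (−0.063), for Btg2 with that percentile (−0.050) and for Sesn2 on the first day (0.023). Leaving out 1 array in turn gave −0.11 to 0.20 for Bax, negative without mimic array 2 or scramble array 1, and −0.34 to 0.039 for Gadd45a, positive without mimic array 2. It gave −0.20 to 0.037 for Sesn2 and −1.03 to 0.10 for Trp53, both positive without scramble array 2. Trp63 was −0.087 with that percentile, −0.065 with quantile normalization, −0.046 in the series matrix and −0.048 to 0.14 without 1 array, negative without scramble array 2. The cause was not tested. Taking the percentile over probes seen on all 10 scans moved the median of all genes from 0.09 to −0.04 and that of the 10 genes from 0.06 to −0.07. The replicate block, over samples numbered alike in both groups, gave 2335 called genes, 0 of the 10, and −0.036 for Bax. Deviations of samples with the same number correlated at −0.28 to 0.19, and no scramble sample correlated best with its own number. Sample 3 was scanned on day 1 in the mimic group and on day 2 in the scramble group. These correlations therefore cannot test a pairing by number, and samples were not paired. The number of arrays limits the precision, and Trp53, near background, could not be fitted with the filter on all 10 scans.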

Other observations

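Several of the 10 genes are known to be induced by other factors too, Sesn2 and Gadd45a by the stress factor ATF4 and Btg2 with the immediate early genes of serum and growth factor signalling. Of 14 measured ATF4 response genes 1 rose, Ddit4, and none fell, where 5.86% of all genes rose and 3.88% fell (limma, median 0.05 beside 0.09 over all genes). Vldlr had 0.87 ± 0.26 (SE, adjusted p = 0.0752) and Trib3 0.53 ± 0.22 (adjusted p = 0.177). Vldlr was 1.22 without scramble array 1 and 0.53 without scramble array 2. Of 11 measured immediate early genes 1 rose and none fell (median 0.04), beside the same 5.86% and 3.88% of all genes. Ier3, a stress-induced survival gene, rose by 1.10 ± 0.21 (adjusted p = 0.0134), a call lost without mimic array 1 or mimic array 3, with scaling to the median and without a filter. Jun, a subunit of the AP-1 factor, had −0.70 ± 0.21 (adjusted p = 0.0712) and Dusp1, a phosphatase of MAP kinases, 0.55 ± 0.19 (adjusted p = 0.122). Jun passed in 8 of 18 alternatives and Dusp1 in 3. For both, these include the fit without scramble array 1, which leaves scramble array 2 as the only control. They also include the fit that counts scans as separate samples, where 30.5% of all genes passed.

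Among the p53 family, Trp63 had 3.64, 3.67 and 3.59 on the mimic arrays and 3.68 and 3.49 on the scramble arrays, a difference of 0.05 ± 0.19 (SE, adjusted p = 0.909). This rests on 1 of its 4 probes, the other 3 being well above background on 2, 0 and 0 of the 10 scans, and its sign turned in 4 of 18 alternatives, among them 2 of the scalings. None of the 3 probes of Trp73 was well above background on more than 2 of the 10 scans. Trp63 was named after its values were seen.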
